A study of Mus musculus with 28 samples.

Results

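The 86 genes described here encode the proteins of the cytosolic ribosome and a few close relatives. They were taken by symbol (Rpl, Rps or Rplp followed by a digit, leaving out the Rps6k kinases) from 20416 genes in liver RNA-seq tables of mouse models of nonalcoholic steatohepatitis. Of the 86 genes, 76 encode core subunits, 46 of the large and 30 of the small subunit, and 10 do not: the paralogs Rpl3l, Rpl10l, Rpl22l1, Rpl36al, Rpl39l, Rps27l and Rpl37rt, the pseudogene Rpl31-ps12, the ribosome assembly factor Rpl7l1 and the Rps19-binding protein gene Rps19bp1. Livers came from male C57BL/6 mice. In the diet model, 4 livers came from mice on a methionine- and choline-deficient diet (MCD) and 4 from mice on the matched low-fat control diet (CD), for 4 weeks by the titles and 5 weeks by another label. In the STAM model, mice given streptozotocin, a toxin of pancreatic beta cells, at postnatal day 2 and high-fat diet from week 4 were compared with mice on control diet, with 5 STAM and 5 control livers at 4 weeks of age and another 5 and 5 at 10 weeks. The STAM livers of 4 weeks were thus taken at the age at which the high-fat diet began. Whether every sample is a separate mouse is not stated in the labels, and the p-values therefore describe sample-to-sample spread, which could be technical.

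A ribosome joins a large subunit, which forms peptide bonds, and a small subunit, which reads the message. Most ribosomal protein messages of mammals begin with a terminal oligopyrimidine tract, a cytidine followed by a short run of C and T, through which mTORC1 and the RNA-binding protein Larp1 control their translation together. The liver uses many ribosomes to make plasma proteins. Several ribosomal protein messages, among them Rplp0, Rpl13a, Rps18, Rpl19 and Rpl4, also serve as normalizers in quantitative PCR.

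To show that start-site feature, promoter windows of genes on which the results below turn are printed from RefSeq (build GRCm38.p6), from 30 bases before the transcription start to 20 bases from it on. Each is written in the direction of the gene, with capitals for the C nearest to the start that is followed by at least 4 pyrimidines and for the pyrimidines after it. Rplp0, Rpl13a and Rpl12 were higher in MCD livers, Rpl35a and Rpl7a lower there, Rpl22 lower in STAM livers at 4 weeks and Rpl22l1 lower at 10 weeks.
Rplp0 (chr5:115559437-115559486, plus strand): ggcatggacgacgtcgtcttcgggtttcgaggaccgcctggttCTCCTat
Rpl13a (chr7:45128726-45128775, minus strand): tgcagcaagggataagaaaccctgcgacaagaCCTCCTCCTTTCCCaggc
Rpl12 (chr2:32961682-32961731, plus strand): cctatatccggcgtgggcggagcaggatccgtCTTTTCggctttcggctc
Rpl35a (chr16:33056423-33056472, plus strand): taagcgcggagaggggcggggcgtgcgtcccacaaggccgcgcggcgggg
Rpl7a (chr2:26910777-26910826, plus strand): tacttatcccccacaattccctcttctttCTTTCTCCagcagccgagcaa
Rpl22 (chr4:152325696-152325745, plus strand): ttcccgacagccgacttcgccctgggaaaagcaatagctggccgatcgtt
Rpl22l1 (chr3:28805478-28805527, plus strand): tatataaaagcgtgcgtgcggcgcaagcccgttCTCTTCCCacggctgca
The capitals begin at the base before the start in Rpl7a, where they end a longer run of pyrimidines, 2 bases after the start base in Rpl13a and Rpl12, 3 after it in Rpl22l1 and 13 after it in Rplp0. No such stretch is marked in the windows of Rpl35a and Rpl22, which have 3 and 2 starts in the table, of which 1 is shown. Promoters matched for 66 of the 86 genes. A C followed by 4 pyrimidines at the start base itself was found in 12 of the 66 (18.2%), against 2.49% of all 27025 promoters, and within 5 bases of the start in 42.4%, against 18.5%. In the window of 250 bases before to 50 after the start, on either strand, CCGGAAG was found in 36.4% of the 66 and in 9.12% of all promoters. GGGCGG, which can share 1 or 2 end bases with CCGGAAG, was found in 59.1% and 35.9%, and TATAAA in 10.6% and 14.2%. These are matches of letters.

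Values were log2 CPM (log2 of counts-per-million), scaled by the authors within each table, and libraries held 16.2 to 25.9 M reads. The library sizes behind the values were 1.11 to 1.23 times the total reads in MCD libraries and 0.832 to 0.899 times in CD libraries. They were 1.01 to 1.05 times the total in STAM libraries and 0.956 to 0.990 times in control libraries at 4 weeks, and 1.05 to 1.16 times in STAM and 0.878 to 0.939 times in control libraries at 10 weeks. Counts of calls below are on the authors' scaling unless stated. Because this scaling followed the groups, most counts of calls are given also with each library divided by its total reads. This shifts all genes of a comparison together, and it moved the median log2 fold change of all genes to 0.49, from 0.07, for MCD and to 0.33, from 0.05, for STAM at 10 weeks. In bulk liver, fewer cells of a type and less RNA per cell cannot be told apart. Summed over 6 hepatocyte genes, levels were 43017 to 58682 CPM in STAM livers and 77777 to 104762 CPM in control livers at 10 weeks, and 67444 to 91437 CPM in MCD livers and 76785 to 99637 CPM in CD livers. Summed over 6 macrophage genes, levels were 528 to 695 CPM in STAM livers and 366 to 536 CPM in control livers at 10 weeks, and 605 to 1124 CPM in MCD livers and 354 to 564 CPM in CD livers. Of the 6 hepatocyte genes 5 fell in STAM livers at 10 weeks and 3 fell in MCD livers, where the sums overlapped. With total-read scaling 2 of them were lower and 0 higher in STAM livers at 10 weeks, where 6.22% of all genes were lower. In MCD livers 3 were then lower and 3 higher, where 7.98% of all genes were lower and 49.5% higher. Summed over 6 stellate cell genes, levels were 522 to 687 CPM in MCD livers and 370 to 407 CPM in CD livers, with 5 of 6 higher, and 353 to 570 CPM in STAM livers and 277 to 402 CPM in control livers at 10 weeks. Of 4 cholangiocyte genes 3 rose in MCD livers and 3 in STAM livers at 10 weeks. On the authors' scaling 22.6% of all genes rose and 20.1% fell in MCD livers, and 25.3% rose and 22.5% fell at 10 weeks. With total-read scaling 6 stellate cell and 3 cholangiocyte genes were higher in MCD livers, and 4 and 4 at 10 weeks, where 45.8% of all genes were higher. By that scaling 1 stellate cell gene was lower at 10 weeks. Every one of these cell type genes had reads in every group, and the part of these cell types in the results was not tested.

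How ribosomal protein genes were counted limits some of them. The deposited counting length was 1 base for Rps27, 23 for Rpl26, 43 for Rpl30 and 79 for Rpl34, whose coding sequences span 255, 438, 348 and 354 bases in GENCODE, so their values rest on a fragment of the gene. For Rps15a it was 5134 bases, against 393 coding bases. The median counting length was 693.5 bases for the 86 genes and 2371 bases for all genes. The sources used here do not say how reads shared with pseudogenes and paralogs were assigned, so the split between such copies is uncertain. Reads summed to 0 over the libraries of each group for the testis-type paralog Rpl10l, to at most 6 for Rpl3l, the muscle form of Rpl3, for Rpl31-ps12 and for Rps27, and to 22 or fewer for Rpl39l. After the filter on low values, which left out the lowest 25% of genes, 85 of the 86 genes were tested for MCD, 83 for STAM at 4 weeks and 84 for STAM at 10 weeks. Rpl10l was left out of each, Rpl39l of both STAM tests and Rps27 of the 4-week test.

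The 86 genes took 1.34%, 1.46%, 1.40% and 1.64% of all reads in the MCD livers, against 1.02%, 1.14%, 1.11% and 1.06% in the CD livers. Every MCD library lay above every CD library. On the authors' library sizes the same genes summed to 11631 to 13364 CPM in MCD livers and 11295 to 13452 CPM in CD livers, which overlapped. At 10 weeks the picture was the reverse. Shares of 0.871%, 0.939%, 0.860%, 0.977% and 0.968% in STAM livers overlapped with 0.982%, 1.04%, 0.977%, 0.904% and 0.974% in control livers. On the authors' library sizes, STAM livers held 8167 to 8692 CPM and control livers 10283 to 11181 CPM, which did not overlap. At 4 weeks both measures overlapped, with shares of 0.913% to 1.09% in STAM livers and 0.998% to 1.11% in control livers, and sums of 9060 to 10423 CPM in STAM livers and 10189 to 11551 CPM in control livers.

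**Figure D1:**
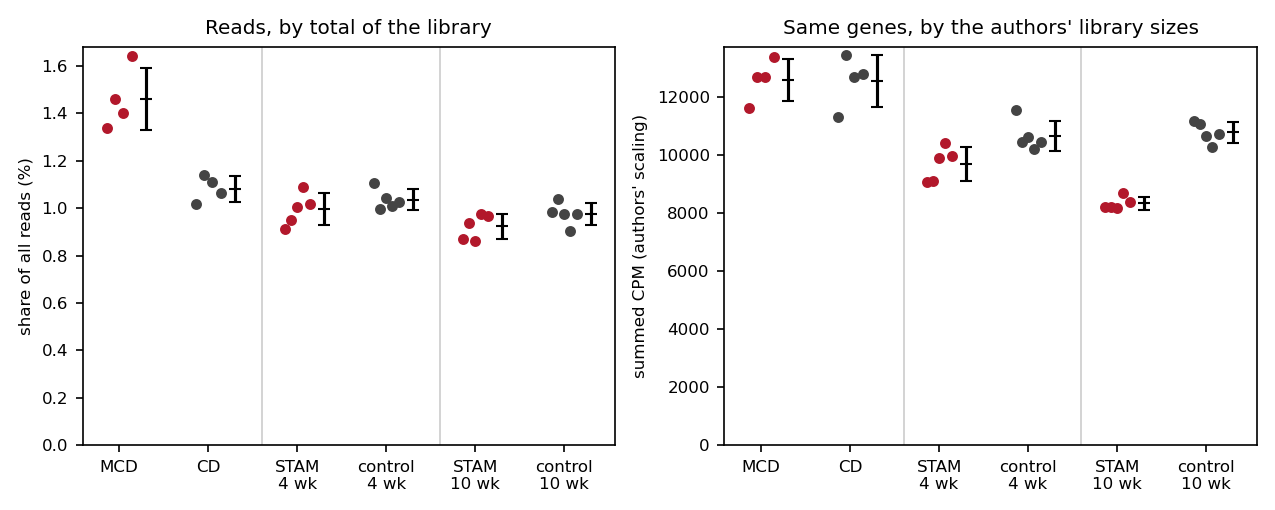
Summed level of the 86 ribosomal protein genes in each library, as percent of all reads (left) and as summed CPM on the authors' library sizes (right), with group mean and SD (n = 4 for MCD and CD, 5 for each other group). MCD stands apart from CD only in the left panel, and STAM from control at 10 weeks only in the right panel.

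With the MCD diet, ribosomal protein genes stayed near their CD levels on the authors' scaling while many other genes moved. Of 85 tested genes, 8 rose and 4 fell (limma, adjusted p under 0.05), where 42.7% of all 15312 genes tested were called, 22.6% higher and 20.1% lower. MCD and CD libraries did not overlap for 7 genes that were higher and 3 that were lower in MCD livers, where 20.9% and 19.2% of all genes were. The median log2 fold change was 0.03 for the ribosomal protein genes and 0.07 for all genes. The genes that rose, besides the partly counted Rpl26 and Rpl30, were Rpl3, Rpl12, Rpl13a, Rpl35, Rpl41 and Rplp0, and those that fell were Rpl7a, Rpl35a, Rpl36a and its paralog Rpl36al. All but Rpl36al are core genes of the large subunit. Of 30 small-subunit genes 0 were called by limma, and 0 by voom, with 1 at an unadjusted p under 0.05 in each. With total-read scaling 25 of the 30 small-subunit and 37 of the 46 large-subunit genes were higher, where 49.5% of all genes were. After quantile normalization 18 and 21 were higher, where 20.3% of all genes were. Whether the subunits differed was not tested.

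Rpl41 encodes the smallest protein of the ribosome. Its log2 CPM was 7.50, 7.76, 7.91 and 8.23 in MCD livers, against 7.25, 7.48, 7.29 and 7.08 in CD livers. No MCD library was below a CD library, and the level was 49.0% higher (log2 fold change 0.58 ± 0.14 SE, limma adjusted p = 0.00634). Rpl12 encodes a protein at the base of the stalk to which elongation factors bind. Its log2 CPM was 6.89, 7.01, 7.02 and 6.99 in MCD livers, against 6.42, 6.65, 6.64 and 6.54 in CD livers. The groups did not overlap, and the level was 33.5% higher (log2 fold change 0.42 ± 0.09, limma adjusted p = 0.00228).

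The PCR normalizers Rpl13a and Rplp0 were both higher in MCD livers. Rpl13a, also known outside the ribosome as a translational silencer, had log2 CPM of 7.56, 7.73, 7.80 and 8.01 in MCD livers, against 7.31, 7.51, 7.37 and 7.27 in CD livers, without overlap. Its level was 32.7% higher (limma adjusted p = 0.00893). Rplp0, the anchor of the acidic stalk, had log2 CPM of 8.24, 8.55, 8.56 and 8.98 in MCD livers, against 8.11, 8.33, 8.15 and 7.89 in CD livers. The lowest MCD library lay within the CD range, and the level was 37.8% higher (limma adjusted p = 0.0239). The other two stalk proteins, Rplp1 and Rplp2, varied widely within groups: Rplp1 spanned 6.30 to 7.49 log2 CPM in MCD livers and 6.20 to 6.95 in CD livers, with a limma adjusted p of 0.803. In each diet group replicate 4 was the extreme for all 3 stalk genes, the highest of the MCD libraries and the lowest of the CD libraries. Without MCD replicate 4, the number of ribosomal protein genes called higher was 3, and without CD replicate 4 or MCD replicate 2 it was 5.

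Among the genes that fell, Rpl35a, which encodes a large-subunit protein, had log2 CPM of 6.95, 6.97, 6.90 and 6.75 in MCD livers, against 7.06, 7.48, 7.41 and 7.52 in CD livers. The groups did not overlap, and the level fell by 28.1% (log2 fold change -0.48 ± 0.11, limma adjusted p = 0.00425). Rpl36al had log2 CPM of 6.67, 6.77, 6.75 and 6.89 in MCD livers, against 7.06, 7.23, 7.22 and 7.20 in CD livers, again without overlap. It fell by 24.5% (limma adjusted p = 0.00277), and Rpl36a, its X-linked partner, fell by 20.3% (limma adjusted p = 0.03). The 2 coding sequences are 87.9% identical, so reads may be shared between them. Rpl7a fell by 18.5% without overlap of groups (limma adjusted p = 0.0279). The number of genes called lower was 2 without MCD replicate 1, CD replicate 2 or CD replicate 3, and 7 without CD replicate 1.

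Divided by total reads, 66 of the 85 genes were higher in MCD livers and 0 lower by limma. The 4 genes that fell on the authors' scaling were then not called, with Rpl35a at -0.05, Rpl36al at 0.02, Rpl36a at 0.10 and Rpl7a at 0.13 on the log2 scale. Of all genes, 49.5% were higher and 7.98% lower with this scaling. The median of the ribosomal protein genes was 0.45 beside 0.49 for all genes, so relative to the median gene they stood at -0.04 on both scalings. Rplp0 reached 0.89 and Rpl12 0.84 on the log2 scale. Quantile normalization placed 39 genes higher and 0 lower, where 20.3% and 20.5% of all genes were, with a median of 0.29 beside -0.00 for all genes.

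In STAM livers at 4 weeks, 76 of 83 ribosomal protein genes had a fold change below 0, but the shifts were small. The median log2 fold change was -0.13, beside 0.01 for all genes. By limma 3 genes fell and 0 rose, where 9.8% of all genes tested were called, 6.52% higher and 3.27% lower. At an unadjusted p under 0.05, for which the share of all genes is not given here, 27 were lower and 1 was higher. By voom, 2 fell and 0 rose, with 27 lower and 2 higher at an unadjusted p under 0.05. STAM and control libraries did not overlap for 12 genes, each lower in STAM livers, where 3.67% of all genes were lower and 6.38% higher without overlap. The fallen genes were Rpl22, Rps20 and Rpl10a. With total-read scaling 57 of 75 core genes had a fold change below 0, against 71 on the authors' scaling, with core medians of -0.06 and -0.14.

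Rpl22 encodes a large-subunit protein that also binds RNA outside the ribosome. Its log2 CPM was 6.23, 6.06, 6.15, 6.05 and 6.20 in STAM livers, against 6.59, 6.55, 6.44, 6.47 and 6.52 in control livers. The groups did not overlap, and the level fell by 23.1% (log2 fold change -0.38 ± 0.06, limma adjusted p = 0.00241). With total-read scaling Rpl22 alone was lower, at -0.30 (limma adjusted p = 0.00534), and Rps27l alone was higher, at 0.22 (limma adjusted p = 0.0417), where 1.76% of all genes were lower and 9.02% higher. After quantile normalization Rpl22 alone was lower and no gene higher, where 3.75% of all genes were lower and 5.59% higher. Rps20, of the small-subunit head, fell by 14.3% (limma adjusted p = 0.0304) and Rpl10a fell by 14.2% (limma adjusted p = 0.049), both without overlap. Rpl22 passed with each of the 10 libraries left out in turn, whereas the calls of Rps20 and Rpl10a were both lost without any one of STAM replicates 1, 2, 3 and 5 or control replicates 2 and 5. Summed macrophage genes were 538 to 747 CPM in STAM livers and 380 to 512 CPM in control livers at this age, and summed hepatocyte genes 103136 to 118624 CPM in STAM livers and 129443 to 148696 CPM in control livers.

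In STAM livers at 10 weeks, ribosomal protein genes of both subunits were lower as a group on the authors' scaling. By limma 71 of 84 genes fell and 0 rose, where 22.5% of all genes tested fell, 25.3% rose and 47.8% were called in either direction. At an unadjusted p under 0.05, 0 genes were higher by limma and 0 by voom, and voom called 70 lower. The median log2 fold change was -0.38 (range of the 72 core genes counted over more than 79 bases, -0.52 to -0.14), beside 0.05 for all genes. STAM and control libraries did not overlap for 63 genes, each lower in STAM livers, where 16.3% of all genes were lower and 16.8% higher without overlap. Of the large subunit 38 of 46 genes fell, with a median of -0.37, and of the small subunit 28 of 30, with a median of -0.40. With total-read scaling 6 of the 46 and 4 of the 30 were lower, where 6.22% of all genes were. In the authors' deposited table, adjusted p-values were under 0.05 for 64 of the 86 genes, each lower in STAM livers, and for 32.3% of all genes in either direction. In their table for MCD 9 genes passed, 7 higher and 2 lower, beside 30.3% of all genes, and Rpl3, Rpl7a and Rpl36a did not. In their table for STAM at 4 weeks 1 gene passed, Rpl22, beside 7.02% of all genes, and Rps20 and Rpl10a did not.

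**Figure D2:**
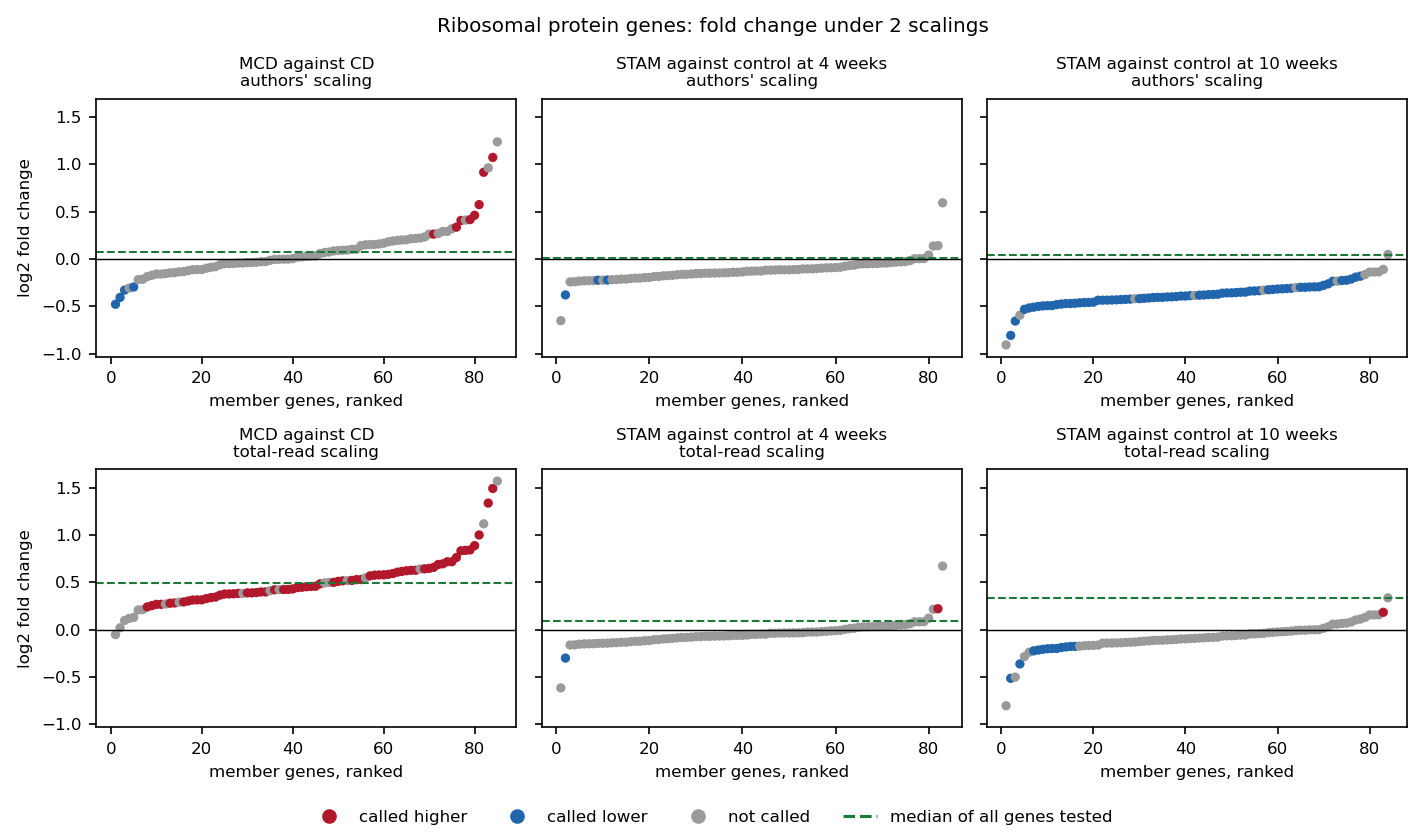
Log2 fold change of each tested ribosomal protein gene, ranked within a panel, in MCD livers against CD and in STAM livers against control at 4 and 10 weeks, on the authors' scaling (top) and with total-read scaling (bottom). Red and blue mark genes called higher and lower by limma, and the dashed line is the median of all genes tested. At 10 weeks 71 genes are blue in the top panel and 12 in the bottom panel, and in both panels most points lie below the dashed line.

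The largest falls among core genes at 10 weeks were close in size. Rpl21 had log2 CPM of 6.32, 6.30, 6.28, 6.48 and 6.52 in STAM livers, against 6.83, 6.96, 6.90, 6.93 and 6.85 in control livers. It fell without overlap (log2 fold change -0.52 ± 0.06, limma adjusted p = 3.83e-05). Rpl27a, Rpl35a, Rps25 and Rps3a1 fell without overlap, at -0.51, -0.50, -0.49 and -0.49 on the log2 scale (limma adjusted p of 1.53e-05, 4.1e-05, 3.9e-05 and 8.09e-05). Rps6, the small-subunit protein phosphorylated by S6 kinases, had log2 CPM of 7.81, 7.81, 7.84, 7.92 and 7.88 in STAM livers, against 8.27, 8.36, 8.29, 8.29 and 8.34 in control livers. It fell by 27.2% without overlap (limma adjusted p = 5.17e-05), and stood at -0.17 with total-read scaling (limma adjusted p = 0.0553). Rpl5 and Rpl11, which bind Mdm2 when ribosome assembly is disturbed, fell too, at -0.36 and -0.40 on the log2 scale (limma adjusted p of 0.000783 and 7.59e-05). With total-read scaling neither was called, at -0.065 and -0.11 (limma adjusted p of 0.52 and 0.164).

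The genes that did not pass the test at 10 weeks included the whole acidic stalk. Rplp0 had log2 CPM of 8.15, 8.25, 8.23, 8.26 and 8.11 in STAM livers, against 8.54, 8.25, 8.33, 8.19 and 8.36 in control livers. The groups overlapped, and the log2 fold change was -0.14 ± 0.08 (limma adjusted p = 0.155). Rplp1 stood at -0.23 and Rplp2 at -0.14 (limma adjusted p of 0.125 and 0.256). Rpl19, Rpl36 and Rps19, the last of which is mutated in human Diamond-Blackfan anaemia, also missed the threshold, at -0.14, -0.30 and -0.16. The remaining 7 were Rps27l, the poorly counted Rpl26, Rpl30, Rpl34 and Rps27, and Rpl3l and Rpl31-ps12 with few reads.

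Of 8 ribosomal protein genes in common use as PCR normalizers (Rpl4, Rpl13a, Rpl19, Rpl32, Rplp0, Rps16, Rps18 and Rps29), all but Rpl19 and Rplp0 fell at 10 weeks, where 22.5% of all genes fell. Rps18 fell by 27.7%, Rpl4 fell by 25.9% and Rpl13a fell by 23.7%, each without overlap of groups (limma adjusted p of 4.15e-05, 0.000161 and 0.000214). Rpl13a thus fell in STAM livers at 10 weeks, with log2 CPM of 6.87, 6.81, 6.80, 6.96 and 6.80 in STAM livers, against 7.35, 7.28, 7.22, 7.15 and 7.20 in control livers, and rose in MCD livers. Divided by total reads, Rps18 stood at -0.18 and Rpl4 at -0.14 at 10 weeks (limma adjusted p of 0.0331 and 0.107), and Rpl13a stood at -0.10 (limma adjusted p = 0.245) and at 0.83 in MCD livers (limma adjusted p = 0.000107). By that scaling 1 of the 8 genes, Rps18, was lower and 0 higher at 10 weeks, where 6.22% of all genes were lower and 45.8% higher. In MCD livers 7 were then higher, against 2 on the authors' scaling, where 49.5% and 22.6% of all genes were higher.

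**Figure D3:**
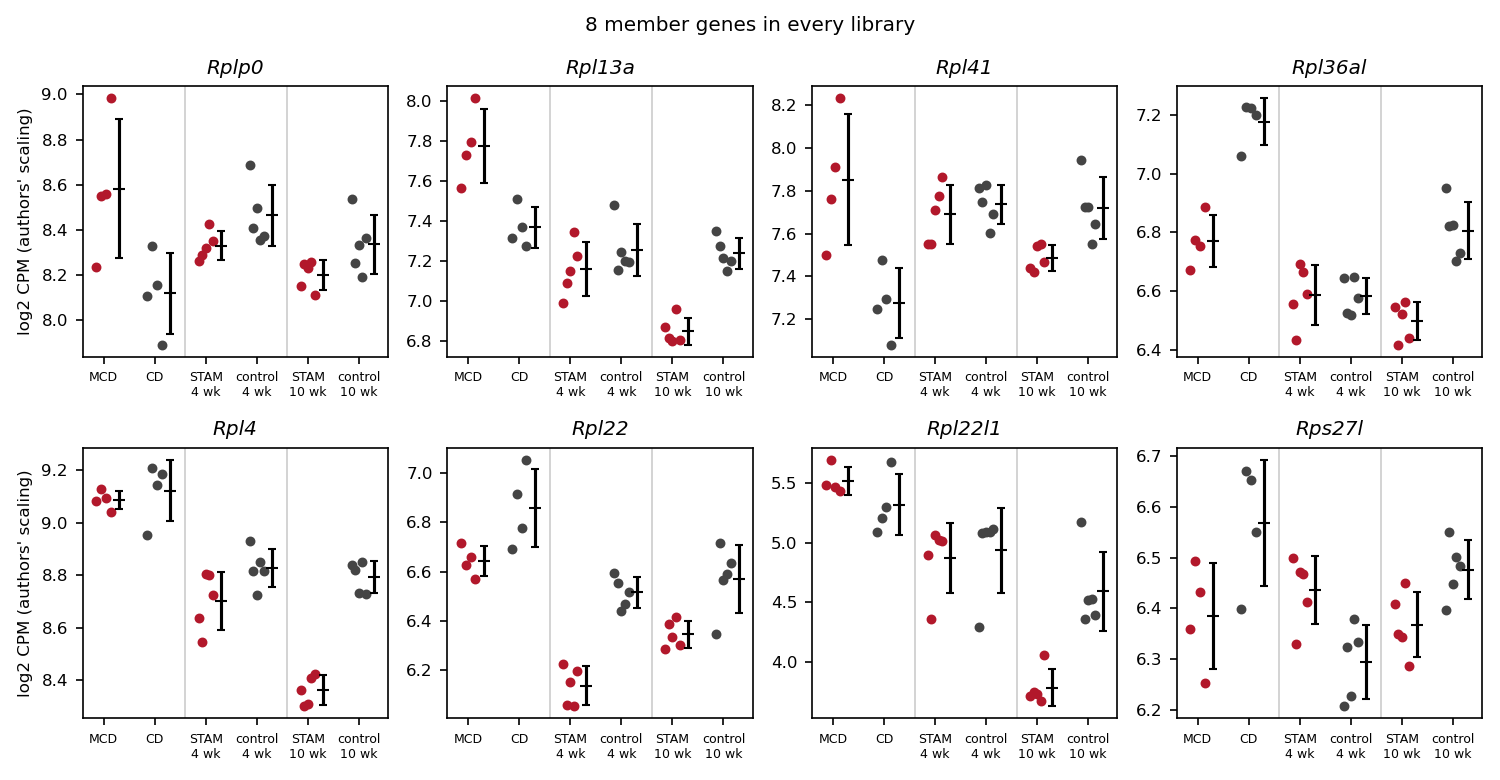
Log2 CPM on the authors' scaling of 8 ribosomal protein genes and paralogs in every library, with group mean and SD (n = 4 for MCD and CD, 5 for each other group). Levels may be set beside each other within a pair of groups, not across the grey lines, since each table was scaled alone. Rpl13a, Rpl41 and Rpl36al separate MCD from CD, Rpl22 separates the groups at 4 weeks, and Rpl4, Rpl13a, Rpl36al and Rpl22l1 separate them at 10 weeks.

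Total-read scaling left few of the 10-week calls. With it, 12 genes were lower and 1, Rps27l, was higher, where 6.22% of all genes were lower and 45.8% higher. The median of the ribosomal protein genes was -0.09 and that of all genes 0.33. Relative to the median gene, ribosomal protein genes stood at -0.43 on the authors' scaling, -0.42 with total reads and -0.17 after quantile normalization, which called 48 lower and 0 higher, where 22.4% and 18.8% of all genes were. The 20 genes with the most reads over all 10-week libraries together took 15.4% to 17.2% of reads in STAM livers and 20.2% to 21.5% in control livers. The part of this in the scaling was not tested.

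The effect at 10 weeks was set against that at 4 weeks in 1 fit over the 4 groups. The effect of STAM was lower at 10 weeks than at 4 weeks for 27 of 83 genes and higher for 0 (limma, adjusted p under 0.05), where 11.2% of all genes were lower and 8.89% higher. At an unadjusted p under 0.05, for which the share of all genes is not given here, it was lower for 48 and higher for 0. The largest differences among the called genes were those of Rpl22l1 and Rpl7l1, at -0.74 ± 0.24 and -0.66 ± 0.10 on the log2 scale (limma adjusted p of 0.0361 and 0.000177). Among core genes Rpl27a, Rps25 and Rpl21 differed by -0.42, -0.39 and -0.37 (limma adjusted p of 0.00817, 0.00732 and 0.0118). Control replicate 1 of 4 weeks was the highest of its group for 10 genes by a wide gap, and 43 genes differed without it, against 17 without STAM replicate 4 of 4 weeks. With total-read scaling 1 gene, Rpl7l1, differed downwards, at -0.45, and 1, Rpl22, upwards, at 0.37 (limma adjusted p of 0.00833 and 0.012), where 3.59% and 19.3% of all genes did. After quantile normalization 4 genes differed downwards and 1 upwards, where 8.33% and 7.8% of all genes did.

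The MCD effect and the 10-week STAM effect differed in the same direction for many genes on each scaling. The MCD effect was the higher for 46 of 84 genes and the lower for 0 (limma, adjusted p under 0.05), where 12.9% of all genes were higher and 15.0% lower. At an unadjusted p under 0.05, for which the share of all genes is not given here, it was the higher for 60 and the lower for 0. With total reads it was the higher for 65, where 17.8% of all genes were higher and 10.7% lower. After quantile normalization it was the higher for 62, where 15.0% were higher and 14.4% lower. Rpl12 differed by 0.87 ± 0.12 on the log2 scale, Rpl41 by 0.81 ± 0.16 and Rpl13a by 0.80 ± 0.12 (limma adjusted p of 2.75e-05, 0.000821 and 4.13e-05). Of the small subunit 17 of 30 genes differed, among them Rps26 by 0.81 and Rps25 by 0.60 (limma adjusted p of 0.00948 and 0.000581). With total reads 26 of the 30 differed, each with the higher MCD effect. Diet, age and streptozotocin differ together between the models.

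**Figure D4:**
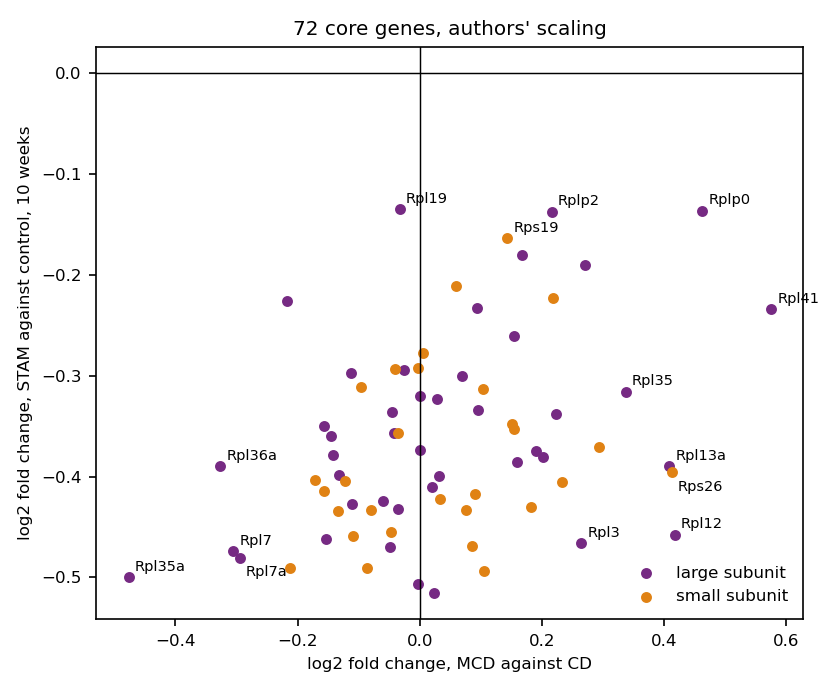
Log2 fold change in STAM livers against control at 10 weeks (vertical) and in MCD livers against CD (horizontal) for the 72 core genes counted over more than 79 bases, on the authors' scaling, coloured by subunit. Every point lies below 0 on the vertical axis, whereas the horizontal values run from -0.48 to 0.58.

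Across the 72 core genes counted over more than 79 bases, Spearman's rho between the MCD and the 10-week STAM effects was 0.34 and Pearson's r 0.36, which is a description, since genes are not independent replicates and the fold changes share libraries within each model. Of the 8 genes that rose in MCD livers, 5 fell in STAM livers at 10 weeks, namely Rpl3, Rpl12, Rpl13a, Rpl35 and Rpl41, and of the 4 that fell in MCD livers all 4 also fell in STAM livers at 10 weeks, where 71 of the 84 genes tested fell. These calls are on the authors' scaling. With total-read scaling the 4 that fell in MCD livers were not called there. Rpl13a was then not called at 10 weeks, at -0.10 (limma adjusted p = 0.245). On the authors' scaling Rpl35a fell by 28.1% in MCD livers and fell by 29.3% in STAM livers at 10 weeks. Its fold changes did not differ detectably (difference 0.02 ± 0.12, 95% interval -0.23 to 0.28, limma adjusted p = 0.92).

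The paralogs did not move as 1 group. Rpl22l1, whose product can take the place of Rpl22 in the ribosome and whose coding sequence is 67.5% identical to it, showed the largest fall among genes called at 10 weeks. Its log2 CPM was 3.72, 3.76, 3.73, 3.68 and 4.06 in STAM livers, against 5.17, 4.36, 4.52, 4.53 and 4.40 in control livers. The groups did not overlap, and the level fell by 42.8% (log2 fold change -0.81 ± 0.14, limma adjusted p = 0.000431), and -0.51 with total-read scaling (limma adjusted p = 0.00649). Rpl22 fell by 14.5% at 10 weeks with overlapping groups (limma adjusted p = 0.0175). At 4 weeks Rpl22 was lower and Rpl22l1 stood at -0.06 (limma adjusted p = 0.88). On the authors' scaling the effects at 10 and 4 weeks differed for Rpl22l1, as given above, while for Rpl22 the difference was 0.15 ± 0.09 (limma adjusted p = 0.244). With total-read scaling the difference was called for Rpl22, upwards, and not for Rpl22l1. In each STAM and control group, at both ages, 1 library stood apart from the rest for Rpl22l1. Per length, Rpl22l1 averaged 29.1 RPKM (CPM per kilobase counted) in STAM livers and 51.8 RPKM in control livers at 10 weeks, and Rpl22 averaged 37.8 RPKM in STAM livers and 44.3 RPKM in control livers.

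Rps27l, a paralog of Rps27 and a p53 target in human cells, did not pass the test at 10 weeks. Its log2 CPM at 10 weeks was 6.41, 6.35, 6.34, 6.45 and 6.29 in STAM livers, against 6.40, 6.55, 6.45, 6.50 and 6.48 in control livers. The groups overlapped, at -0.11 on the authors' scaling (limma adjusted p = 0.13) and 0.18 with total-read scaling (limma adjusted p = 0.0297). Rps27 itself, with a counting length of 1 base, cannot be compared with it. Both genes that match by symbol without encoding a subunit fell at 10 weeks. Rpl7l1 fell by 36.4% (log2 CPM of 5.83, 5.95, 5.89, 5.98 and 5.85 in STAM livers, against 6.47, 6.70, 6.55, 6.52 and 6.53 in control livers, limma adjusted p = 3.56e-06). Rps19bp1 fell by 30.7% (limma adjusted p = 0.000358), both without overlap. Rpl7l1 was also called lower with total-read scaling, at -0.36 (limma adjusted p = 0.0012).

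Per length, the levels of the 72 core genes spanned a wide range. Rpl10, a late-joining large-subunit protein, averaged 424.9 RPKM in STAM livers and 541 RPKM in control livers at 10 weeks, and 579.7 RPKM in MCD livers and 647 RPKM in CD livers. Rpl41 averaged 399 RPKM in STAM livers and 471 RPKM in control livers at 10 weeks, and 523 RPKM in MCD livers and 347 RPKM in CD livers. Rps15a was the lowest, with 12.8 RPKM in STAM livers and 16.3 RPKM in control livers at 10 weeks, on its counting length of 5134 bases.

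Genes that make or use ribosomes gave other patterns. Rpsa and Gnb2l1 (the older symbol of Rack1), which encode small-subunit proteins but have symbols outside the rule, fell by 0.44 and fell by 0.35 on the log2 scale in STAM livers at 10 weeks (limma adjusted p of 0.000551 and 0.000453). With total-read scaling neither was called at 10 weeks, at -0.15 and -0.055 (limma adjusted p of 0.118 and 0.522). Neither was called in MCD livers or in STAM livers at 4 weeks. Of 44 ribosome assembly factors, 29 rose and 0 fell in MCD livers, with a median log2 fold change of 0.63, and 1 rose and 20 fell in STAM livers at 10 weeks, with a median of -0.24. For this and the following lists, 22.6% of all genes rose and 20.1% fell in MCD livers, and 25.3% rose and 22.5% fell in STAM livers at 10 weeks. At 4 weeks 6.52% of all genes rose and 3.27% fell in STAM livers. The largest rises in MCD livers were those of Rrp12, a factor for export of ribosomal precursors, at 1.75, and of Nhp2 and Gar1, which belong to the complex that pseudouridylates RNA, at 1.56 and 1.43 (limma adjusted p of 3.12e-06, 6.86e-06 and 6.45e-05). Of 14 genes of RNA polymerase I, which transcribes ribosomal RNA, 9 rose and 1 fell in MCD livers, and 2 rose and 3 fell in STAM livers at 10 weeks. With total-read scaling, by which 49.5% of all genes were higher in MCD livers and 45.8% in STAM livers at 10 weeks, 43 of 44 assembly factors and 11 of 14 polymerase genes were higher in MCD livers. At 10 weeks 12 assembly factors were higher and 1 lower, with a median of 0.05 beside 0.33 for all genes, and 5 polymerase genes were higher and 0 lower, with a median of 0.17.

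**Figure D5:**
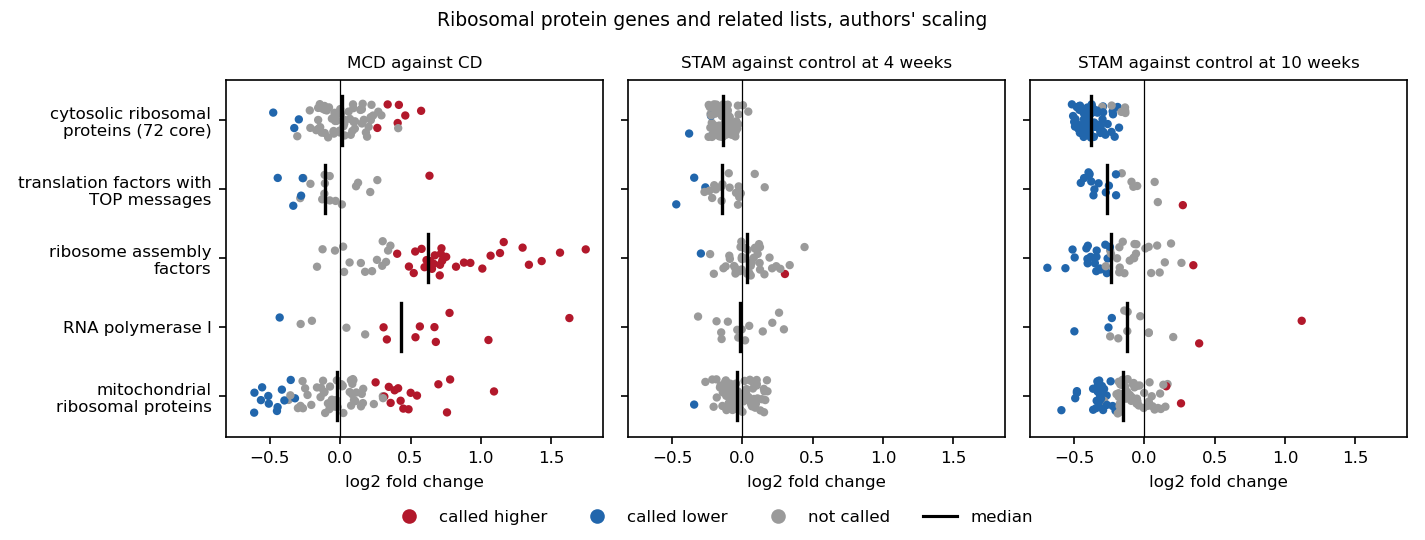
Log2 fold changes on the authors' scaling of the 72 core ribosomal protein genes counted over more than 79 bases and of 4 related lists, in MCD livers against CD and in STAM livers against control at 4 and 10 weeks. Red and blue mark genes called higher and lower by limma, and the bar is the list's median. In MCD livers the assembly factors have a median of 0.63 and the core genes 0.01.

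A further list held 20 genes, translation factors and some other proteins, taken to have messages with the same tract, which was not checked in them. Of these, 1 rose and 4 fell in MCD livers, 0 rose and 3 fell in STAM livers at 4 weeks and 1 rose and 13 fell at 10 weeks. The genes that rose, Hnrnpa1 in MCD livers and Nap1l1 in STAM livers at 10 weeks, do not encode translation factors. With total-read scaling the counts were 12 higher and 0 lower in MCD livers and 4 higher and 0 lower in STAM livers at 10 weeks, with medians of 0.31 and 0.03 beside 0.49 and 0.33 for all genes. In STAM livers at 4 weeks 1 was then higher and 1 lower, where 9.02% of all genes were higher and 1.76% lower. Of 77 mitochondrial ribosomal protein genes, 15 rose and 12 fell in MCD livers and 2 rose and 26 fell in STAM livers at 10 weeks, with medians of -0.02 and -0.16 beside 0.07 and 0.05 for all genes. With total reads 52 were higher and 0 lower in MCD livers and 28 higher and 2 lower in STAM livers at 10 weeks, with medians of 0.40 and 0.14. Of 18 genes of mTORC1 signalling and tract recognition, 6 rose and 5 fell in MCD livers, 1 rose and 3 fell in STAM livers at 4 weeks, and 5 rose and 6 fell at 10 weeks. With total-read scaling 10 were higher and 1 lower in MCD livers. In STAM livers 1 was then higher and 1 lower at 4 weeks, and 7 were higher and 0 lower at 10 weeks. Of all genes, 49.5%, 9.02% and 45.8% were higher in these 3 comparisons, and 7.98%, 1.76% and 6.22% lower. Ddit4, an inhibitor of mTORC1, rose in MCD livers, in STAM livers at 4 weeks and in STAM livers at 10 weeks, at 1.93, 1.34 and 1.65 on the log2 scale (limma adjusted p of 0.00644, 0.00192 and 0.00443). Larp1 fell in STAM livers by 0.32 at 4 weeks and by 0.46 at 10 weeks (limma adjusted p of 0.0173 and 0.000156), and did not pass with total-read scaling at either age. Mtor rose by 0.99 in STAM livers at 10 weeks (limma adjusted p = 1.91e-07). Sesn2, another inhibitor of mTORC1, rose by 0.96 in MCD livers and by 0.79 in STAM livers at 10 weeks, and Eif4ebp1, a repressor of cap-dependent translation, rose by 0.98 in MCD livers (limma adjusted p of 0.00108, 0.000286 and 0.00042). Its relative Eif4ebp2 fell by 0.76 in MCD livers and fell by 0.36 in STAM livers at 4 weeks (limma adjusted p of 3.76e-05 and 0.0348). Tsc1, of the complex that restrains mTORC1, fell by 0.52 in MCD livers and fell by 0.51 in STAM livers at 4 weeks (limma adjusted p of 0.00386 and 0.0325). With total-read scaling Tsc1 stood at -0.09 in MCD livers and -0.43 in STAM livers at 4 weeks (limma adjusted p of 0.544 and 0.0498). Eif4ebp2 then stood at -0.34 in MCD livers and -0.29 in STAM livers at 4 weeks (limma adjusted p of 0.0124 and 0.0753). At 10 weeks Rps6kb1, an S6 kinase, fell by 0.52 and Eif4e, the cap-binding factor, fell by 0.47 in STAM livers (limma adjusted p of 0.00127 and 0.000112), and neither was called with total-read scaling.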

How the data were processed

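Liver RNA, selected for poly(A), was sequenced from 28 samples, and the 3 deposited tables hold 20416 genes. Reads were aligned with STAR 2.4.2a to mm10, per the submitters' processing notes, whereas no source used here names the read counter or annotation. Each value the authors deposited is the log2 of CPM, counts-per-million of a library size scaled within its table, with a prior of 0.25 reads, as worked out from the values. Whole reads were recovered from them to within 0.05 read, at 16.2 to 25.9 M per library. The deposited fold changes and p-values of the authors' own comparisons are used only where their table is named.

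Each comparison was fitted within its table with limma 3.58.1 (trend and robust, with statmod 1.5.0, in R 4.3.3). Tests were two-sided over all genes except the 25% with the lowest mean, and calls were made where the Benjamini-Hochberg adjusted p was under 0.05. Differences between effects were fitted over 4 groups together. The fit was tested on simulated data. Alternatives were total-read scaling, quantile normalization, a prior of 2 reads, no filter, voom on the recovered reads, a replicate block and each library left out in turn. RPKM is the recovered CPM on the authors' library sizes per kilobase of deposited counting length. Depth limits the precision of genes with few reads, for which a sum of 3 reads or fewer over a group was taken as the floor.

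The members and lists were chosen with earlier results of these data known. Genes named are the up to 8 largest rises and falls called in each comparison, paralog pairs, PCR normalizers, Rpl5, Rpl11, Rps6 and genes with 1 library over 1 log2 unit from its group median. Of other lists, up to 3 called genes per direction are named. Rps19, Rpl36 and the stalk genes at 10 weeks, and genes named for a difference between effects, were chosen after their values were seen. Promoter and coding sequences came from RefSeq and GENCODE.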

Additional observations from a re-analysis of the deposited data

Results flagged for a closer look

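Within groups, 36 of 488 sets of values of a ribosomal protein gene in 1 group (7.38%) held a library set apart from the rest by a wide gap. Chance gives about 1 in 20 for independent sets, but these sets share libraries and are not independent. Control replicate 1 at 4 weeks was the library set apart as highest for 10 genes and as lowest for 1. Among named genes, the log2 CPM of control replicate 1 at 4 weeks was the highest of its group for Rpl10 at 8.69, Rpl13a at 7.48, Rpl35a at 7.04, Rpl7 at 8.32 and Rps6 at 8.45, and the lowest for Rpl22l1 at 4.29. At the same age Rpl22l1 was lowest in STAM replicate 2 at 4.36, and Rpl7 was highest in STAM replicate 4 at 7.98.

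At 10 weeks Rpl22l1 stood apart in STAM replicate 5 at 4.06 and in control replicate 1 at 5.17, each the highest of its group. Rpl10 was highest in STAM replicate 4 at 8.47, Rpl7 highest in control replicate 2 at 8.25 and Rpl7a lowest in control replicate 4 at 7.94. In the diet model Rpl11 stood apart in MCD replicate 1 at 7.31, and Rpl10 and Rpl36al in CD replicate 1 at 8.83 and 7.06.

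The STAM effect at 10 weeks was lower than that at 4 weeks for 27 genes, and the MCD effect was higher than the STAM effect at 10 weeks for 46 genes, by limma's test of the difference.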

How the results depend on the processing

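Scaling changed the counts most. With total-read scaling 66 genes were higher and 0 lower in MCD livers, 1 higher and 1 lower in STAM livers at 4 weeks, and 1 higher and 12 lower at 10 weeks, and the effect at 10 weeks was above that at 4 weeks for 1 gene and below it for 1. With quantile normalization the counts were 39 higher and 0 lower in MCD livers and 1 lower in STAM livers at 4 weeks, and the age difference was called for 1 gene upwards and 4 downwards. Left out in turn, single libraries gave 3 to 10 genes higher and 2 to 7 lower in MCD livers, 1 to 3 lower at 4 weeks, 67 to 74 lower at 10 weeks, 17 to 43 with a lower effect at 10 than at 4 weeks and 41 to 51 with a higher effect in MCD.

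The replicate numbers did not pair the samples, with same-number correlations of -0.12 to 0.01, and a replicate block gave 6 genes higher and 2 lower in MCD livers, 1 lower in STAM livers at 4 weeks, 66 lower at 10 weeks, 8 with a lower effect at 10 than at 4 weeks and 35 with a higher effect in MCD.

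Total-read scaling shifts all genes of a comparison together, so that 1 of 85 genes was below 0 in MCD livers with it and 38 without it, and 69 and 83 of 84 in STAM livers at 10 weeks. Among named genes, with total-read scaling the log2 fold change in MCD livers became 0.39 for Rpl19, 0.24 for Rps27l, 0.25 for Rps4x, 0.31 for Rps6, 0.42 for Rpl27a, 0.13 for Rpl7a, 0.38 for Rpl5, 0.10 for Rpl36a, 0.39 for Rpl4, 0.40 for Rpl7l1, 0.019 for Rpl36al, 0.29 for Rpl11, 0.38 for Rpl39 and 0.27 for Rpl10. After quantile normalization it became 0.30 for Rps4x, 0.40 for Rps6, 0.34 for Rpl27a, 0.077 for Rpl7a, 0.28 for Rps3a1, 0.44 for Rpl5, 0.59 for Rpl4 and 0.46 for Rpl10, and the cause was not tested. At 10 weeks in STAM livers it became 0.066 for Rpl22, 0.18 for Rps27l, 0.014 for Rps16 and 0.058 for Rpl41 with total reads, and -0.82 for Rpl30 after quantile normalization. A prior of 2 reads left all 194 results in place.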
